A study of Bos taurus with 14 samples.

Results

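The transcripts described here encode the translation factors, the proteins that start, extend and end protein synthesis on the ribosome, and the proteins that act on them. Members were the probe sets whose bovine RefSeq symbol begins with EIF or EEF, or is ETF1, with 1 probe set for each symbol. The array values gave 35 such symbols among 6697 named symbols, and the RefSeq gene table lists 67 symbols of this kind. Mean log2 values of 34 of the 35 exceeded the filter of 4.59, and these were tested. EIF4E3, which encodes a relative of the cap-binding protein, had a mean of 4.25 and was not tested. By role, 4 tested members serve start codon choice or initiator tRNA, 11 are subunits of the scaffold eIF3, 4 bind the cap or unwind RNA, and 1 is a 4E-binding protein. A further 3 are eIF2 kinases, 4 are subunits of the exchange factor eIF2B, 2 are elongation factors, 1 modifies an elongation factor and 1 is the release factor ETF1. The remaining 3, EIF1AD, EIF4A3 and EIF6, carry the name of an initiation factor but are known mainly for other tasks.

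Mammary gland tissue came from 14 Holstein-Friesian cows, and each cow had 1 Affymetrix array. Cows were matched as pairs in 7 blocks, and in each block 1 cow received the Omega diet, whose concentrate held linseed, and 1 the Control diet, whose concentrate held none. Both diets ran from 3 weeks before the expected calving until 6 weeks after calving, on the same basal diet. The sources used here do not give the day of tissue sampling. A parity label of 1 was given to 4 cows, 2 in each diet and all in blocks 302 and 306; 2 cows were labelled 2 and 8 were labelled 3 or higher, up to 6. The stated design speaks instead of cows of second and later parity, and the sources do not say how the labels relate to it. In 4 of the 7 blocks the labels of the paired cows differed. The cows were separate animals. The main p-values for diet and interaction reflect the spread of the differences between paired cows, and those for parity the spread between cows.

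Initiation begins when eIF2 brings the initiator tRNA to the small ribosomal subunit, which eIF3 holds as a scaffold, while eIF4E binds the mRNA cap and the helicase eIF4A, aided by EIF4B and EIF4H, opens the leader. 4E-binding proteins hold eIF4E away from its partners until the kinase complex mTORC1 phosphorylates them, and eIF2 kinases slow initiation by acting on eIF2, whose recycling needs eIF2B. In the lactating mammary gland these controls are studied for their part in milk protein synthesis, and much of that regulation is by phosphorylation, which transcript levels do not record.

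Arrays of 2 cows, the Control cows of blocks 302 and 304, stood apart from the other 12 before any comparison. Along the first principal component, with 51.0% of the variance, they lay at 43.72 and 46.42, and the other 12 lay between -18.08 and 10.81. Median correlations with the other arrays were 0.926 and 0.912 for these 2 and at least 0.962 elsewhere. Of the other 12, the Omega cow of block 306 lay nearest to these 2 on that component, at 10.81. It also had the lowest median correlation of the 12, 0.962. The mean level of the 7 fibroblast markers above the filter (of 8 named) was 10.43 and 10.21 in these 2 cows and 9.05 to 9.64 in the other 12. The 7 macrophage and neutrophil markers above the filter (of 10 named) averaged 6.33 and 6.93 against 5.57 to 6.09, and the 6 luminal epithelial markers (of 7 named) 9.85 and 9.78 against 8.43 to 9.40. Of the luminal markers, KRT8 read 10.57 and 10.81 against 6.90 to 9.19, but KRT19 read 11.97 and 11.63, within 10.93 to 12.10. The 5 myoepithelial markers averaged 8.78 and 8.58 against 7.98 to 8.43. For the 6 lymphocyte markers the means were 7.00 and 7.60 against 6.49 to 6.87. Endothelial markers averaged 6.49 and 6.20 against 6.04 to 6.46. Adipocyte markers averaged 10.55 and 10.16, within 10.08 to 10.91. The acute phase transcript SAA3 read 12.80 and 13.82 against 6.70 to 10.20. Milk protein transcripts, which define the secretory tissue, averaged 14.41 to 14.52 in all 14 cows, near the top of the scale. Of the 3 named red blood cell markers, 0 exceeded the filter. Among the other 12 cows, the Omega cow of block 306 had the highest luminal mean (9.40) and the highest macrophage and neutrophil mean (6.09). Its fibroblast, myoepithelial, lymphocyte, endothelial and adipocyte means were 9.24, 8.34, 6.75, 6.20 and 10.48, none the highest of the 12. Spiked hybridization controls also divided the arrays into 5 with means of 9.07 to 9.63 (the Control cows of blocks 302, 304 and 306 and the Omega cows of blocks 304 and 307) and 9 with 10.06 to 10.42. The part of these differences in the results was not tested, and for the members whose diet values are given in full the estimate without blocks 302 and 304 stands beside the estimate from all blocks. In bulk tissue, fewer cells of a type and less RNA per cell cannot be told apart.

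**Figure D1:**
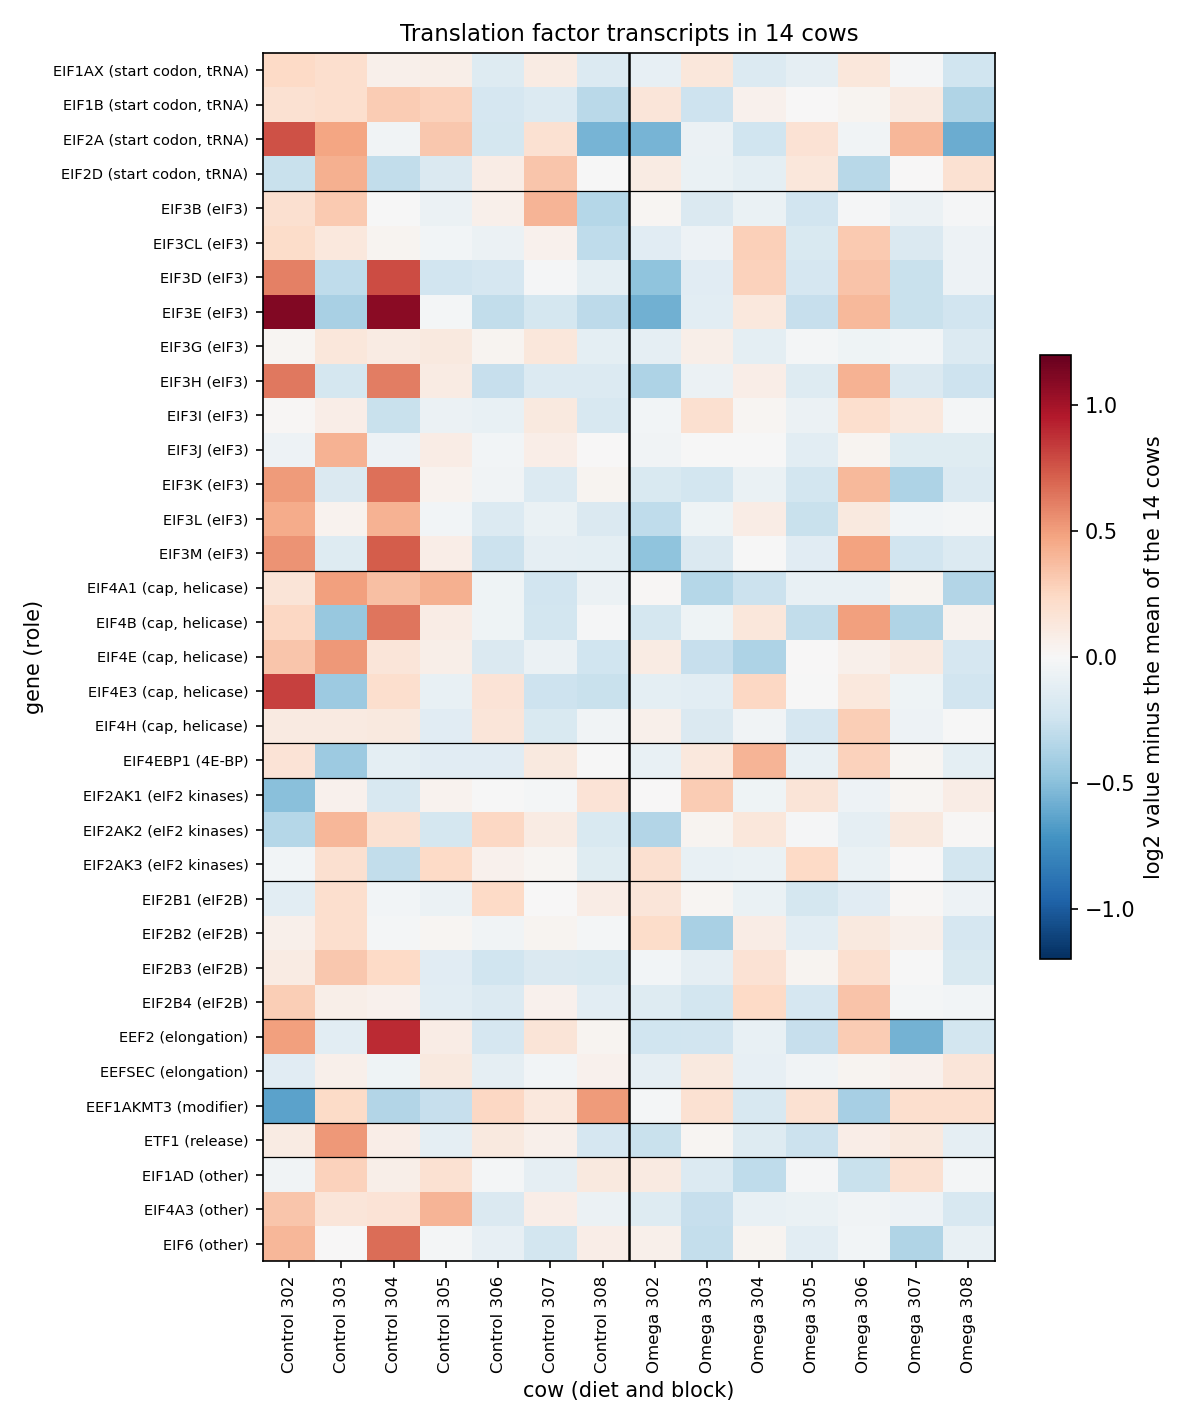
Log2 value of each of the 35 translation factor transcripts (vertical axis, by role) in each of the 14 cows (horizontal axis, Control left and Omega right of the line), minus the transcript's mean over the cows. The Control cows of blocks 302 and 304 share high values of EIF3D, EIF3E, EIF3H, EIF3K, EIF3L, EIF3M and EEF2, and the Omega cow of block 306 has the next highest EIF3E, at 10.92.

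No translation factor transcript passed the test for the diet. With limma and the block as a fixed effect, 0 of 34 had an adjusted p under 0.05, against 0% of all 7518 probe sets tested, and the smallest adjusted p among the members was 0.447. The unadjusted p was under 0.05 for 4 members, EEF2, EIF4A1, EIF4A3 and EIF6, all with the smaller mean in Omega cows, which is 11.8% of the members beside 11.0% of all probe sets (7.22% with the smaller mean in Omega). An exact sign-flip test over the 7 blocks also gave 0 adjusted calls, with 3 members and 768 of all probe sets under 0.05 before adjustment. The signs leaned one way: 28 of 34 differences (82.4%) lay below 0, where 56.9% of all probe sets did, and the median difference was -0.11 log2 beside -0.03 for all. The size of this lean varied with the scaling and with the blocks included. After quantile normalization, 1 member (EIF3I, at 0.20) had an unadjusted p under 0.05, beside 10.4% of all probe sets, and 12 members instead of 6 lay above 0, as the share of all probe sets above 0 went from 43.1% to 51.4%, the members' median was -0.03 and the median of all 0.01. Leaving out blocks 302 and 304, 13 lay above 0, the median was -0.06 and 0 members had an unadjusted p under 0.05, against 6.57% of all probe sets. With block 303 alone left out, 13 members lay above 0 and 0 had an unadjusted p under 0.05, where 516 of all 7518 probe sets did. The number of members under 0.05 was 1 without block 302, 304 or 305, 2 without block 307 or 308 and 6 without block 306. Of all 7518 probe sets, 595, 434, 651, 804, 788 and 1229 were under 0.05 in those fits, in the same order. Leaving out each block in turn, 5 (without block 305) to 13 members lay above 0, and the median ran from -0.14 (without block 306) to -0.06 (without block 302). Diet groups overlapped for all 34 members, while 0.186% of all probe sets had groups that did not overlap.

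**Figure D2:**
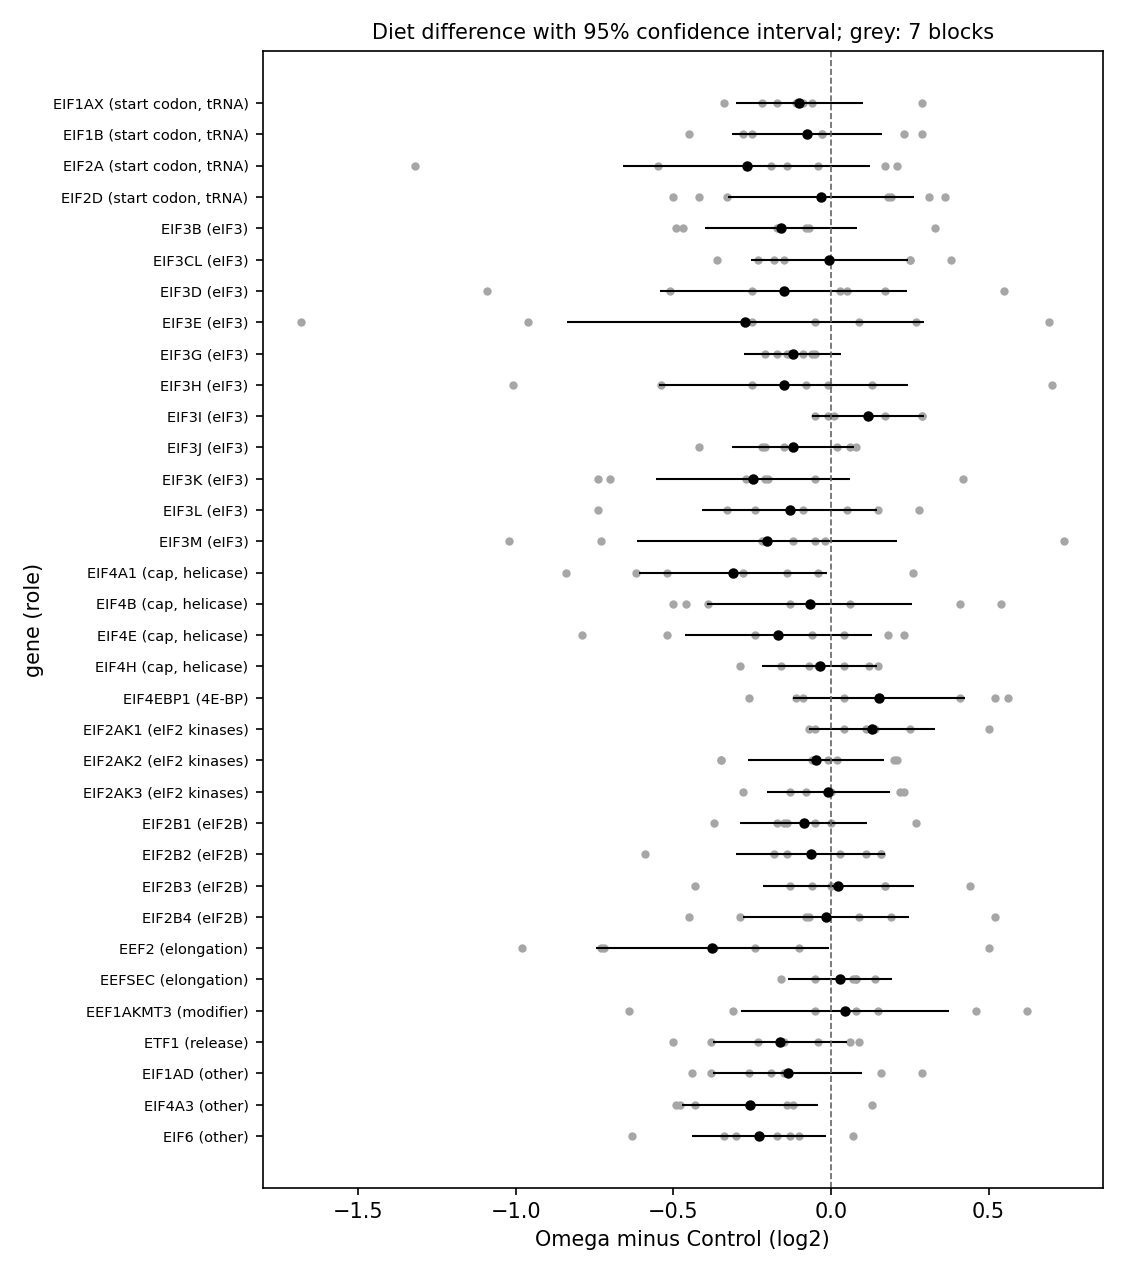
Difference in log2 value, Omega minus Control (horizontal axis), for the 34 tested translation factors by role (vertical axis). Black points and bars are the limma estimate with its 95% confidence interval, and grey points are the 7 blocks; the intervals of EEF2, EIF4A1, EIF4A3 and EIF6 lie wholly below 0, before adjustment for 7518 tests.

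Among the factors of start codon choice and initiator tRNA, EIF1AX (which helps the small subunit scan for the start codon), EIF1B (a close relative of the scanning factor EIF1), EIF2A and EIF2D (both able to deliver tRNA outside the main eIF2 route), all 4 diet differences lay below 0, from -0.27 to -0.03. EIF2A spread most of the 4, with an SD of 0.41 over the 14 cows, and its difference of -0.27 was -0.07 without blocks 302 and 304; for EIF1AX the values were -0.10 and -0.03. The main eIF2 subunit EIF2S1 had no probe set named here and is not analysed here. EIF1AX has a close relative on the Y chromosome in some mammals, but the animals here were cows, which carry no Y chromosome. Whether other paralogs share its probes was not tested.

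For the 11 eIF3 subunits, 10 diet differences lay below 0, with a median of -0.15, and 0 passed the test. EIF3E, a subunit of the body of the complex, is the one with the widest spread among the members, with an SD of 0.52 over the 14 cows beside a median SD of 0.21 for the members and 0.23 for all probe sets. In Control cows EIF3E ran from 10.14 through a median of 10.32 to 11.64, and in Omega cows from 9.96 through 10.30 to 10.92. Both Control values above 11 belong to the cows of blocks 302 and 304, at 11.64 and 11.62, and the other 5 Control cows lie within the Omega range. The difference was -0.27 (95% confidence interval -0.84 to 0.29, limma adjusted p = 0.614), with the smaller value in the Omega cow in 4 of 7 blocks. It became 0.15 (-0.16 to 0.46, limma adjusted p = 0.851) without blocks 302 and 304, so the sign depended on them. The whole eIF3 set did likewise, with 7 of 11 differences above 0 and a median of 0.03 without them, where 46.4% of all probe sets lay above 0.

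Block 306 had the most eIF3 transcripts with the larger value in the Omega cow. In that block 9 of 11 eIF3 transcripts and 23 of 34 members had the larger value in the Omega cow, and the median eIF3 difference was 0.38. In blocks 302 and 304 the larger value was the Omega cow's for 1 and 3 of the 11, with median differences of -0.70 and -0.33. Block 305 had 1 of 11 with a median of -0.21, block 307 had 2 with -0.17 and block 303 had 4 with -0.05. Block 308 was mixed, with 6 of 11 and a median of 0.05. For EIF3M, another subunit of the body, the Omega cow read 10.00 against 11.03 in block 302, 10.48 against 11.21 in block 304 and 10.97 against 10.23 in block 306. The cows of blocks 302 and 306 all carry the parity label 1, so cows of the same label gave opposite signs. Of all probe sets, 51.0% were larger in the Omega cow of block 306 and 45.4% in that of block 302. The change of sign was not particular to eIF3, since the 39 tested cytosolic ribosomal proteins shared it. Of these 39, 35 were larger in the Omega cow of block 306, with a median difference of 0.18. In blocks 302, 304 and 305 the numbers were 1, 1 and 0, with medians of -0.60, -0.41 and -0.30. For blocks 303, 307 and 308 they were 6, 9 and 4, with medians of -0.09, -0.08 and -0.14.

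A different pattern belonged to EIF3G, a subunit that helps in scanning, which is singled out after its values were seen. EIF3G was smaller in the Omega cow in 7 of 7 blocks, with block differences that were all small, and the exact two-sided sign-flip p of 0.0156 is the smallest that 7 blocks allow. Control values ran from 9.17 through 9.38 to 9.42 and Omega values from 9.12 through 9.23 to 9.36. The limma difference was -0.12 (-0.27 to 0.03, adjusted p = 0.496), and it was -0.10 without blocks 302 and 304 and -0.02 (-0.19 to 0.14) after quantile normalization. At least 6 of 7 blocks were smaller in Omega for 9 members (26.5%, beside 12.8% of all probe sets): EEF2, EIF1AX, EIF3B, EIF3G, EIF3K, EIF3M, EIF4A1, EIF4A3 and EIF6. The share of the members is the larger, and members that vary together are not independent counts. EIF3CL, a near-identical copy of EIF3C, may report either gene.

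At the cap, EIF4A1, the helicase that unwinds the leader, had the largest difference of its group. Its Control values ran from 8.81 through 9.19 to 9.53 and its Omega values from 8.69 through 8.95 to 9.07. The 4 highest values are those of the Control cows of blocks 303, 305, 304 and 302, and the ranges overlap through the other 3. The difference was -0.31 (-0.61 to -0.01, limma adjusted p = 0.450) on the log2 scale, which is 1.24-fold between the Control and Omega means. The Omega value was the smaller in 6 of 7 blocks, block 307 being the exception. The estimate was -0.28 (-0.64 to 0.07) without blocks 302 and 304, close to that of all blocks but with an interval that holds 0. EIF4A2 is a near relative, and whether the probes tell the genes apart was not tested.

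EIF4E, the cap-binding protein itself, differed by -0.17 (-0.46 to 0.13, limma adjusted p = 0.576). Control cows ran from 7.76 through 8.07 to 8.52 and Omega cows from 7.63 through 8.01 to 8.11, and the Omega value was the smaller in 4 of 7 blocks. Most Control cows lie within the Omega range, with those of blocks 302, 303 and 304 above it. The EIF4E estimate was -0.06 without block 303, -0.08 without blocks 302 and 304 and -0.07 after quantile normalization. EIF4B and EIF4H, the helicase's helpers, differed by -0.07 and -0.04. For EIF4B the sign turned to 0.10 without blocks 302 and 304 and to 0.06 after quantile normalization, and EIF4H was at -0.01 under both. EIF4G1, the scaffold that joins eIF4E to eIF4A, is not analysed here, since no probe set carried its name.

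EIF4EBP1, the 4E-binding protein that restrains eIF4E, was 1 of the 6 members with a difference above 0, and the largest of them. Its Control values ran from 7.75 through 8.07 to 8.35 and its Omega values from 8.07 through 8.21 to 8.59. The 2 highest values were Omega cows, of blocks 304 and 306, and the lowest was the Control cow of block 303. The difference was 0.15 (-0.12 to 0.42, limma adjusted p = 0.576), with the larger value in the Omega cow in 4 of 7 blocks. It was 0.16 (-0.12 to 0.44) without blocks 302 and 304, 0.08 without block 303, 0.09 without block 304 and 0.24 after quantile normalization. EIF4EBP2 is not analysed here.

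**Figure D3:**
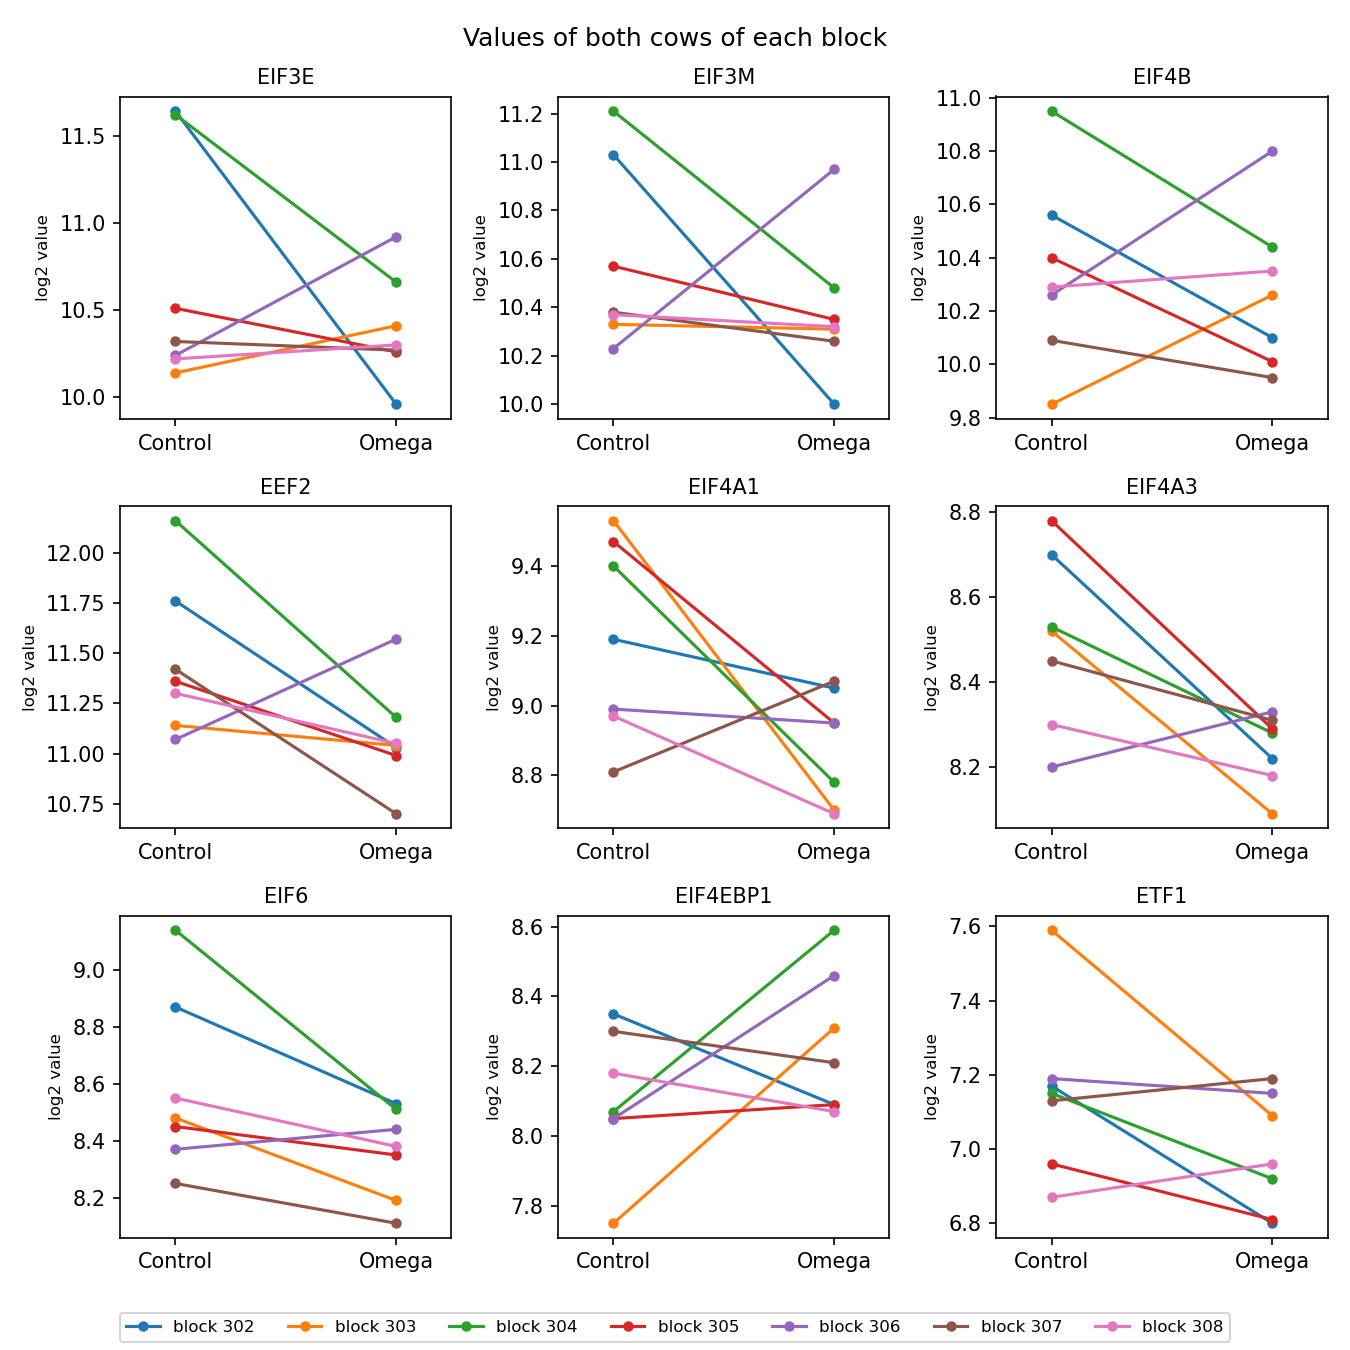
Log2 values (vertical axes) of 9 translation factor transcripts in the Control and Omega cow of each block, joined by a line. EIF4A1, EIF4A3, EIF6 and EEF2 have the smaller value in the Omega cow in 6 of 7 blocks, and the line of block 306 slopes up for EIF3E, EIF3M, EIF4B and EEF2 where that of block 302 slopes down.

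The regulators of eIF2 gave small differences. The 3 eIF2 kinases, EIF2AK1 (activated by lack of heme), EIF2AK2 (by double-stranded RNA) and EIF2AK3 (by stress in the endoplasmic reticulum), had diet differences of 0.13, -0.05 and -0.01. EIF2AK3 read 6.71 through 7.03 to 7.25 in Control and 6.79 through 6.93 to 7.25 in Omega cows, with ranges that nearly coincide, and its interval was -0.20 to 0.19 (limma adjusted p = 0.970); the estimate was -0.10 without blocks 302 and 304 and 0.05 after quantile normalization. EIF2AK4, the kinase that senses uncharged tRNA, is not analysed here. The 4 subunits of eIF2B, which restores eIF2 to its active form, differed by -0.09 to 0.02.

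Of the elongation factors, EEF2, which moves the ribosome along the mRNA, had the largest diet difference of the 34. Control cows ran from 11.07 through 11.36 to 12.16 and Omega cows from 10.70 through 11.04 to 11.57. The Control cows of blocks 304 and 302 were highest at 12.16 and 11.76, and the Omega cow of block 306 came next at 11.57. The difference was -0.38 (-0.75 to -0.01, limma adjusted p = 0.450) on the log2 scale, which is 1.30-fold between the Control and Omega means, and 6 of 7 blocks had that sign. Without blocks 302 and 304 it was -0.19 (-0.55 to 0.18), an interval that holds 0 and the estimate from all blocks. EEFSEC, which brings selenocysteine to the ribosome, differed by 0.03 and had the smallest SD of the members, 0.10. EEF1AKMT3, a methyltransferase of eEF1A, differed by 0.05. EEF1A1, EEF2K and EIF5A are not analysed here.

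ETF1, the release factor that recognizes stop codons, ran from 6.87 through 7.15 to 7.59 in Control and from 6.80 through 6.96 to 7.19 in Omega cows. Its single high value, 7.59, was the Control cow of block 303, and the ranges otherwise overlap. The difference was -0.16 (-0.37 to 0.05, limma adjusted p = 0.505), and it was -0.11 without block 303 and without blocks 302 and 304.

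Both remaining members with an unadjusted p under 0.05 act outside initiation proper. EIF4A3, the helicase of the exon junction complex that marks spliced mRNA, ran from 8.20 through 8.52 to 8.78 in Control and from 8.09 through 8.28 to 8.33 in Omega cows. Of the 7 Control values, 5 lay above every Omega value. The difference was -0.26 (-0.47 to -0.04, limma adjusted p = 0.447). EIF6, which keeps the large ribosomal subunit from joining too early, ran from 8.25 through 8.48 to 9.14 in Control and from 8.11 through 8.38 to 8.53 in Omega cows. Its 2 highest values were again the Control cows of blocks 304 and 302, at 9.14 and 8.87, and the remainder overlap. The difference was -0.23 (-0.44 to -0.02, limma adjusted p = 0.449). Without blocks 302 and 304 the estimates were -0.21 for EIF4A3 and -0.13 for EIF6, and both intervals held 0.

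Other genes of translation were read from lists chosen with results of these data known, and 0 genes of any list passed the adjusted test for the diet. Cytosolic ribosomal proteins gave 38 of 39 differences below 0, with a median of -0.21. Among them 9 had an unadjusted p under 0.05, all smaller in Omega, where 7.22% of all probe sets did, including RPL18 at -0.31 and RPL13 at -0.27. Without blocks 302 and 304 the ribosomal median was -0.08, with 38 of 39 below 0 and 0 with an unadjusted p under 0.05. After quantile normalization it was -0.05, with 31 of 39 below 0 and 1 with an unadjusted p under 0.05. The list of cytosolic aminoacyl-tRNA synthetases, which charge tRNAs, also holds their partner proteins AIMP1 and AIMP2, which do not. It had 14 of 20 below 0 and a median of -0.06. In it AIMP2 and QARS1 had unadjusted p under 0.05 at -0.31 and -0.26, and KARS1 was at -0.26. Without blocks 302 and 304, AIMP2 was at -0.37, QARS1 at -0.17 and KARS1 at -0.10. Without these blocks 18 of 20 on this list lay below 0, and after quantile normalization 9 of 20, with a median of 0.02. The integrated stress response list holds targets and feedback of eIF2 kinases, and also HSPA5 and XBP1, which are not specific to these kinases. It split 5 to 5, and 8 of 10 lay below 0 with a median of -0.19 without blocks 302 and 304. Its smallest p-values belonged to IMPACT, an inhibitor of EIF2AK4, at -0.23, the chaperone HSPA5 at -0.28 and the transcription factor XBP1 at -0.26 (-0.10 without these blocks). In the mTOR list 7 of 11 were above 0, or 10 of 11 without blocks 302 and 304, with AKT1S1, an inhibitor within mTORC1, at 0.22, LAMTOR1 at -0.21 and MLST8 at 0.20. The termination and poly(A)-binding list had 4 of 8 below 0 (PAIP1 at -0.23, PABPC4 at -0.15, which was 0.03 without these blocks, and PELO at 0.04), and the mitochondrial factors had 4 of 6 (TSFM at -0.28, GFM2 at 0.19 and MTIF2 at -0.14). Milk proteins stayed within 0.03 of 0 (PAEP at -0.03, LALBA and CSN1S1 at -0.01), on a part of the scale where such values are compressed.

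Parity was compared between the 4 cows labelled 1 and the 10 labelled higher. With limma, fixed terms for diet and a random term for the block, 0 of 34 members passed, and 0% of all probe sets did. The unadjusted p was under 0.05 for 1 member, against 2.19% of all probe sets. That member was EIF4H, with 6.09 through 6.16 to 6.33 in cows labelled 1 and 5.83 through 5.98 to 6.15 in the others. Its groups overlap only between 6.09 and 6.15, and the difference was 0.22 (0.03 to 0.40, limma adjusted p = 0.983), or 0.25 without the 2 Control cows that stood apart. The number of members with an unadjusted p under 0.05 was 0 without block 305 or block 307, 2 without block 306 and 4 without block 304. Of all 7518 probe sets, 102, 121, 210 and 1103 were under 0.05 in those fits, in the same order. Differences lay above 0 for 24 of 34 members (70.6%, beside 55.7% of all) with a median of 0.05, and for 19 with a median of 0.00 without these 2 cows. None of the fixed members passed: EIF3E at 0.22 (-0.40 to 0.84), EEF2 at 0.13 (-0.28 to 0.53), EIF4E at 0.11 (-0.19 to 0.42), EIF4EBP1 at 0.08 (-0.19 to 0.34) and ETF1 at 0.01 (-0.25 to 0.27), each as label 1 minus higher. Without the 2 Control cows that stood apart, EIF3E was at 0.01 (-0.36 to 0.37), EEF2 at 0.11, EIF4E at 0.06 and both EIF4EBP1 and ETF1 at 0.00.

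Taking the parity label as a number gave other members, with 0 adjusted calls. Under that fit 7 had an unadjusted p under 0.05, beside 23.2% of all probe sets, so the members' share of 34 is not above the background. EEF1AKMT3 was 0.13 log2 larger for each unit of the label (0.06 to 0.21, limma adjusted p = 0.162), EIF2AK1 0.07 and EIF2D 0.08. EIF3E was at -0.15 per unit (-0.28 to -0.02, limma adjusted p = 0.188), EIF3H and EIF3K at -0.09 and EIF4B at -0.10. The 2 Control cows that stood apart carry the labels 1 and 2, and their high eIF3 values lie at that end.

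The diet difference was then compared between parity classes. With limma, 0 of 34 interaction terms passed, 0 had an unadjusted p under 0.05 (125 of all probe sets did, 1.66%), and the smallest adjusted p of the members was 1.00 to 2 decimals. The estimate for EIF3E was -0.31 with an interval of -1.65 to 1.02, an interval that holds large differences of either sign. The class labelled 1 holds only the blocks 302 and 306, which gave opposite signs. When blocks 302 and 304 are left out, the class is block 306 alone, and 7 members then had an unadjusted p under 0.05, beside 12.1% of all probe sets. They were EEF2, EIF2B4, EIF3D, EIF3E, EIF3H, EIF3K and EIF3M, all above 0, the largest being EEF2 at 0.86 and EIF3M at 0.84 (limma adjusted p = 0.326 and 0.226). These values describe the pair of block 306 against 4 other pairs.

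Covariation was measured over the 12 cows other than the 2 that stood apart. An anchor was the member with the highest mean in each of 6 roles, with the mean of the ribosomal proteins as one more reference, which made 232 relations. Adjustment ran over all probe sets for each anchor. Only with EIF3E were members called, and both were eIF3 subunits. EIF3H followed EIF3E at Pearson r = 0.957 (permutation adjusted p = 0.0273; Spearman rho = 0.839, adjusted 0.260), and EIF3M at r = 0.918 (permutation adjusted p = 0.0413; rho = 0.685, adjusted 0.372). Of all 7517 other probe sets, 0.333% passed with EIF3E, and 0 passed with EIF1AX, EIF4B, EIF4EBP1, EEF2 or ETF1. Ranks did not carry either call, and by ranks 0 of all 7517 other probe sets passed with EIF3E. The Omega cows of blocks 304 and 306 lie farthest from the median of EIF3E, and without them r was 0.875 for EIF3H and 0.840 for EIF3M. Within the 9 arrays of high hybridization controls r was 0.967 and 0.954. The pattern is visible in the values: EIF3H was 10.16 and 9.82 in the Omega cows of blocks 306 and 304 and 9.84 in the Control cow of block 305, and 9.37 to 9.67 in the other 9.

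Next to EIF3E came EIF3D at r = 0.887 (permutation adjusted p = 0.0591) and EIF4B at 0.818 (adjusted 0.0878). EIF2D had the most negative value, -0.717 (adjusted 0.131). Among all 55 pairs of eIF3 transcripts the median r was 0.425, where all 561 member pairs had 0.149 and all pairs of tested probe sets 0.004. A division of eIF3 chosen after the values were seen gave 0.716 for the 21 pairs among EIF3CL, EIF3D, EIF3E, EIF3H, EIF3K, EIF3L and EIF3M, 0.472 for the 6 pairs among EIF3B, EIF3G, EIF3I and EIF3J, and 0.123 for the 28 pairs across. EIF3I did not sit clearly in its set. Its r was 0.397, 0.315 and 0.186 with EIF3B, EIF3G and EIF3J, but 0.601 with EIF3L and 0.588 with EIF3CL. With EIF3K it was 0.001. These medians are descriptions, since the pairs share cows and arrays, and whether the division follows the complex was not tested. In the mammalian complex, as background, B, G and I form a module at the edge, J is loosely held, D is a peripheral subunit attached through E, and C, E, H, K, L and M belong to the body.

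**Figure D4:**
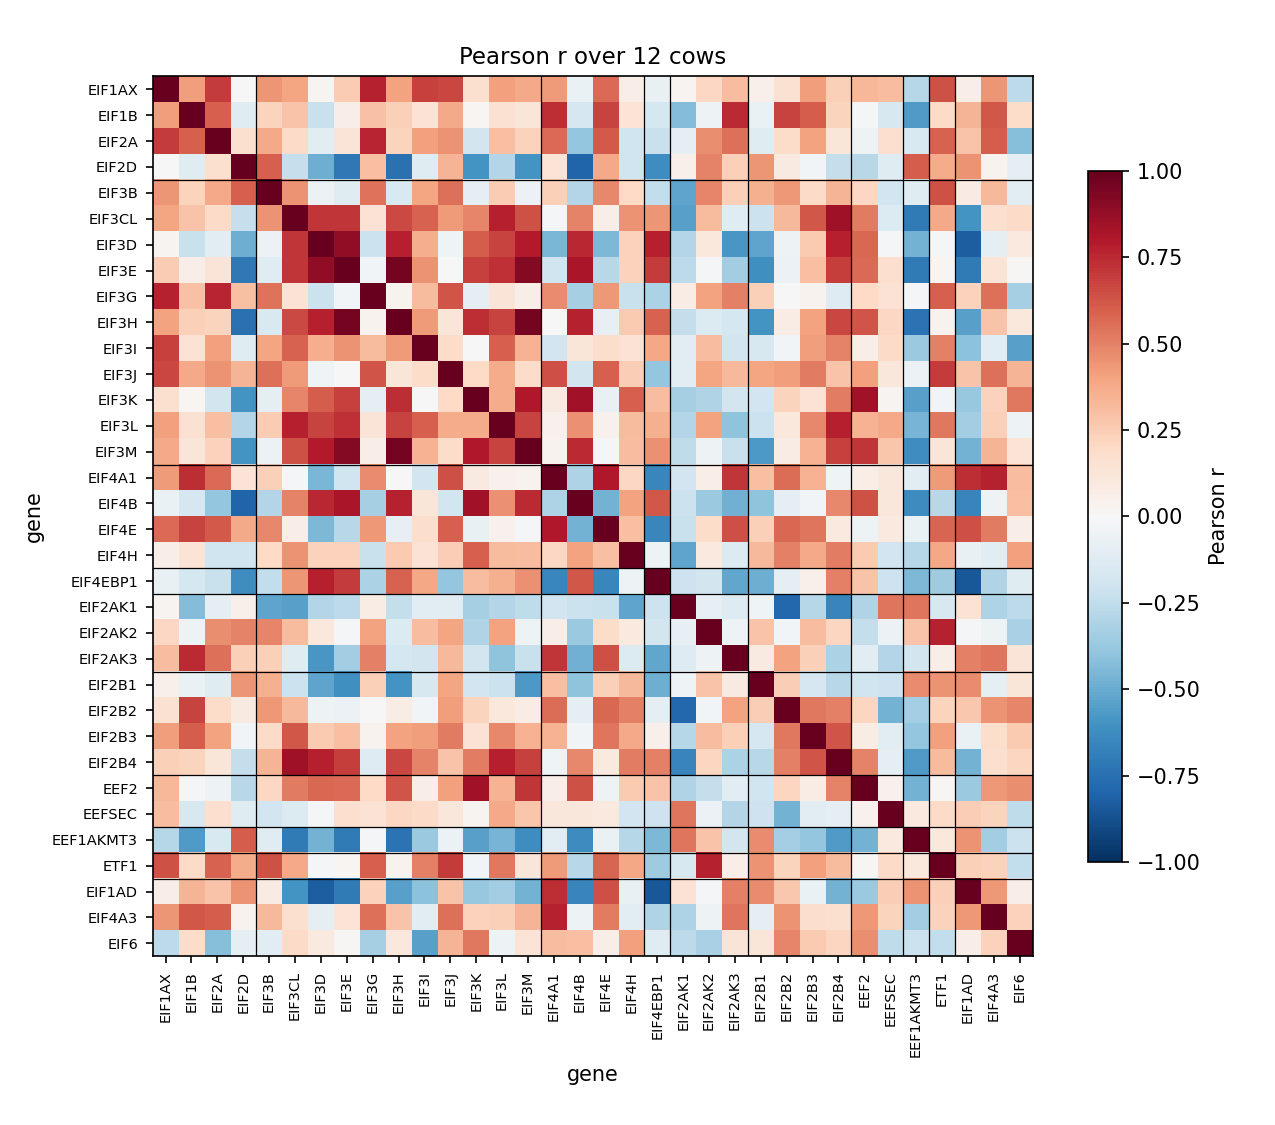
Pearson r over 12 cows between each pair of the 34 tested translation factor transcripts (both axes, ordered by role, with lines between roles). A block of high r joins EIF3D, EIF3E, EIF3H and EIF3M and extends to EIF4B, whereas EIF3G had its highest r with EIF1AX (0.772) and EIF3J with ETF1 (0.696).

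With EIF1AX as the anchor EIF3G had r = 0.772 (permutation adjusted p = 0.270) and EIF2A 0.703 (adjusted 0.342). With EIF4B the highest was EIF3K at 0.838 (adjusted 0.151), and with EEF2 it was EIF3K again at 0.837 (adjusted 0.415), which was 0.584 without the Omega cows of blocks 306 and 307. ETF1 followed EIF2AK2 at 0.770 (adjusted 0.773). None of these relations passed, and with these anchors 0 of all 7517 other probe sets did. EIF4EBP1 ran against EIF1AD at r = -0.849 (permutation adjusted p = 0.0682) and against its target EIF4E at -0.656 (adjusted 0.266). The latter rests on the Omega cow of block 304 and the Control cow of block 303, since r was 0.001 without them. With the ribosomal protein mean 0 members passed (0.412% of all probe sets did), the nearest being EIF3M at 0.792 and EIF3H at 0.751 (permutation adjusted p = 0.141 and 0.181).

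The array also holds control probe sets for bovine eIF-4E and elongation factor 1-alpha, which lie outside the members. Each of the 3 eIF-4E controls followed the EIF4E probe set over the 12 cows, at r = 0.881, 0.909 and 0.898 (permutation p adjusted over 6 relations = 0.00054 for each). Without the 2 farthest cows r stayed at 0.765, 0.792 and 0.854. The order of cows by EIF4E was thus similar on these probe sets of the same arrays. Whether the controls share probes with the EIF4E probe set was not tested. Diet differences of the 3 were -0.23, -0.10 and -0.11, and none passed (exact sign-flip p from 0.172 to 0.703). The elongation factor control of the 5 end read 13.78 and 13.80 in the Control cows of blocks 302 and 304 and 13.07 to 13.58 in the other 12, the same cows that were highest for EEF2. The 3 and M sets of this factor did not share that pattern, since the Control cow of block 304 read 11.14 and 6.16 there, within the other 12 cows, and the Control cow of block 302 read 11.40 and 7.04, above them. Over the 12 cows r with EEF2 was 0.592 for the 5 set (0.375 without the 2 farthest cows), 0.256 for the 3 set and 0.402 for the M set (permutation p adjusted over 6 relations = 0.0684, 0.423 and 0.236).

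**Figure D5:**
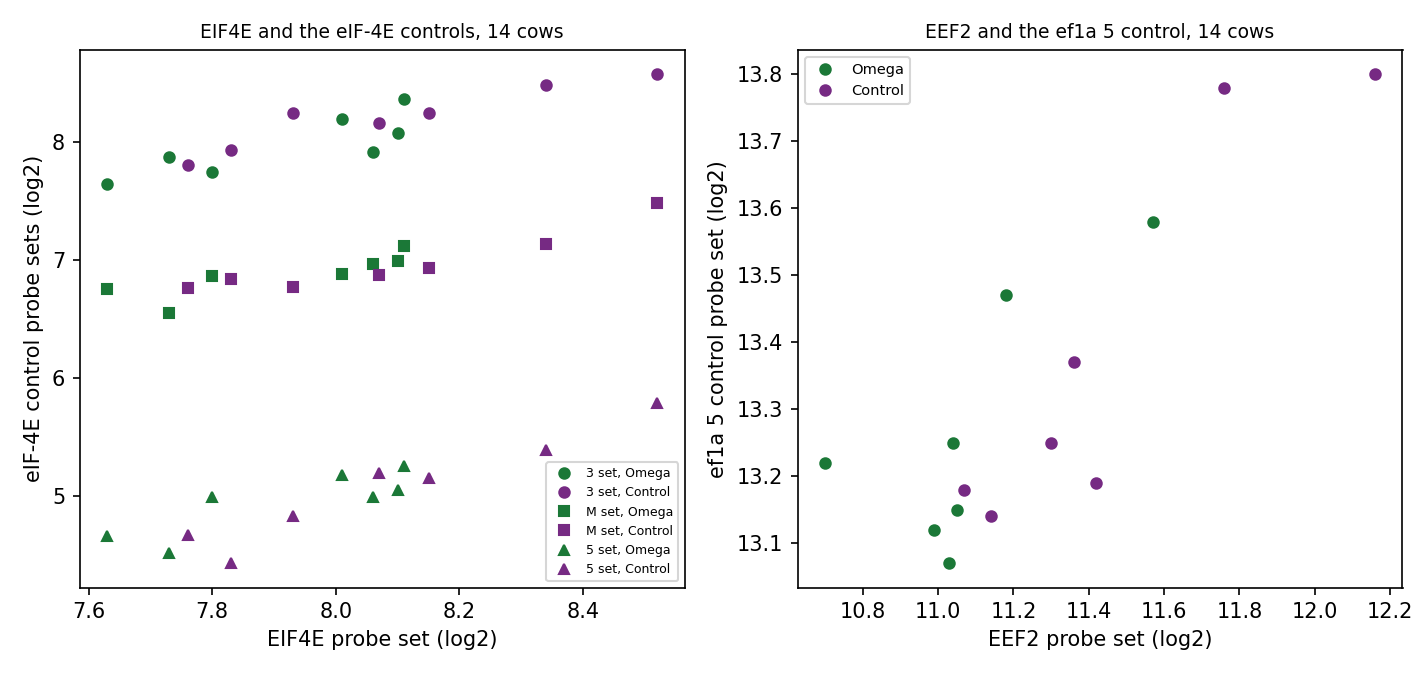
Left, log2 value of the 3 eIF-4E control probe sets (vertical axis) against the EIF4E probe set (horizontal axis) in 14 cows; right, the 5-end control probe set of elongation factor 1-alpha against EEF2. Circles, squares and triangles at left are the 3, M and 5 sets and colours are diets; at right the 2 Control cows at 13.78 and 13.80 lie above the other 12.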

How the data were processed

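The authors deposited log2 values in 1 table, with 1 column for each cow. RMA and GCRMA, which correct background, normalize and summarize Affymetrix probes, are named per the submitters' processing notes, and the sources used here do not say which of them made the deposited table. Array medians lay between 5.70 and 5.76. No read depth applies to arrays, and the number of cows limits the precision: the median half-width of the members' 95% confidence intervals was 0.24 log2 for diet, 0.27 for parity and 0.57 for the interaction. Of 10852 probe sets, 112 were controls of the maker, and 6749 of the other 10740 received 1 symbol by RefSeq accession from the gene table of ARS-UCD2.0. Each member symbol had 1 probe set, so no choice between probe sets arose. Probes differ in brightness, so levels of different probe sets were not compared as results; the mean level served only to choose the anchors of the covariation.

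The 7518 probe sets whose mean exceeded the 30th percentile were fitted together by limma (version 3.58.1, R 4.3.3), with Benjamini-Hochberg adjustment over all of them and a threshold of 0.05. Blocks, taken from the labels and the stated design, pair the cows. Deviations from the diet means correlated at -0.47 to 0.32 within blocks and above 0.1 in 3 of 7. Correlations used permutation tests of 100000 resamples. On simulated data the diet fit recovered 60% of changes of 0.5 log2 and 88% of changes of 1 log2, among 7518 probe sets, and the interaction fit 0% and 36%. The simulated noise was independent between probe sets, with no block effects and no arrays that stood apart. Changes of up to 2 log2 were present together, which eases the adjustment. The deposited arrays differ in these respects, so the shares do not measure the power of the tests here.

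The members and lists were chosen with earlier results of these data known. Values were given for members with an unadjusted p under 0.05 in any comparison and for a fixed set (EIF4E, EIF4EBP1, EIF4EBP2, EIF4G1, EIF4A1, EIF2S1, EIF2AK3, EIF2AK4, EIF3E, EIF5A, EEF1A1, EEF2, EEF2K, ETF1), and of each list for up to 3 genes of smallest diet p. A gene that this rule selects is not reported here. Alternatives were other filters, scalings, weights, covariates and block terms, leaving out blocks, and fits by class of hybridization control.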

Additional observations from a re-analysis of the deposited data

Results flagged for a closer look

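Among 136 groups of cows by member, 15 had 1 cow far from its group by Dixon's test at 95%, where chance gives about 1 in 20 independent groups. These groups were not independent, since each cow counts in a diet and a parity group and members vary together. The share over all probe sets was not computed, and the array of the Control cow of block 304 stood apart. The count is therefore no result about the members. The Control cow of block 304 stood highest among the 10 cows of higher parity label for EEF2 (12.16), EIF3D (10.29), EIF3E (11.62), EIF3H (10.36), EIF3K (10.57), EIF3L (8.87), EIF3M (11.21) and EIF6 (9.14). The Control cow of block 303 stood highest for EIF3J (8.97) in the Control group and in the higher parity group, for EIF2B2 (8.37) in the Control group and for ETF1 (7.59) in the higher parity group. The Omega cow of block 306 was highest in Omega for EIF3K (10.3). Among the 4 cows labelled parity 1, the Control cow of block 302 was lowest for EIF2AK1 (5.73) and the Omega cow of block 302 lowest for ETF1 (6.8).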

How the results depend on the processing

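The counts of members with an adjusted p under 0.05 for diet, parity and interaction stayed at 0 under each alternative run; among all 7518 probe sets, 3 passed for the interaction without blocks 302 and 304, none of them a member. Without the block (an unpaired fit), 3 members instead of 4 had an unadjusted p under 0.05 for diet, at the same median of -0.11. Of all probe sets, 791 instead of 827 did. Members with a diet difference above 0 numbered 6, but 3 of 24 with the 60th percentile filter, 12 with quantile normalization, 13 without blocks 302 and 304 and 5 to 13 leaving out 1 block each. Unadjusted diet calls were 1 with quantile normalization, 1 with a parity covariate, 0 without blocks 302 and 304 and 0 to 6 leaving out 1 block, the lowest without block 303. Among all 7518 probe sets the calls in those fits were 781, 615, 494 and 434 to 1229. EIF3E became 0.148 without blocks 302 and 304, and EIF2AK3 0.0508 with quantile normalization and 0.0432 with a parity covariate, or -0.0474 to 0.0374 leaving out 1 block. Alternatives on hybridization controls were chosen after seeing the data: as a covariate they left 2 unadjusted calls, within high controls 1 call with 10 members above 0 (EIF3E 0.0747), and within low controls 0 calls with 11 above 0 (EIF2AK3 0.058). Of all 7518 probe sets, 579, 462 and 218 were called in these fits, in the same order.

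For parity, 0 unadjusted calls were left by the 60th percentile filter and 7 by the label as a number, whose signs were turned to match label 1 minus higher. Of all probe sets, 80 of 4296 and 1742 of 7518 were called in those fits. Leaving out 1 block gave 0 to 4 calls, beside 85 to 1103 of all 7518 probe sets. For the interaction, no filter gave 1 unadjusted call, beside 196 of all 10740 probe sets. Leaving out blocks 302 and 304 gave an interaction median of 0.31 (EIF3E 0.673, EIF4EBP1 0.306). Leaving out 1 block gave 12 to 27 members above 0, with medians from -0.0868 (without block 306) to 0.326 (without block 302). The ranges were -1.49 to 0.868 for EIF3E, -0.25 to 0.984 for EEF2 and -0.444 to 0.223 for EIF4EBP1. Covariation calls numbered 2, but 1 with median centring, 6 on residuals after the diet means, 0 by Spearman rho (EIF3H 0.8392, EIF3M 0.6853) and 0 within high controls. On these residuals the calls over all probe sets rose too. With EIF3E they went from 25 (0.333%) to 188 (2.5%), and with the ribosomal protein mean from 31 (0.412%) to 204 (2.71%). By Spearman rho and within high controls, 0 of all probe sets were called with any anchor. The causes were not tested. Of 307 named gene values under alternatives, 292 kept direction and side of the threshold, 13 were reversed and 2 were weaker. Dim members are compressed at the low end of the scale, where differences can be understated.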

Other observations

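The Control cow of block 303 held the highest value of 8 members (EIF4E and ETF1 among them), while it held the highest value of 7.73% of all tested probe sets. The Control cows of blocks 304 and 302 held the highest value of 7 and 5 members, and of 16.7% and 20.4% of all probe sets. The Omega cow of block 302 was lowest for 7 members and for 7.97% of all. Over the 12 cows other than those of blocks 302 and 304 on the Control diet, the median SD was 0.19 for the members and 0.19 for all probe sets.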
